A study of Mus musculus with 12 samples.

Results

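The expression of 10 acute phase genes was followed across the livers of 4 groups of mice: the serum amyloid A genes Saa1, Saa2, Saa3 and Saa4, the orosomucoid genes Orm1 and Orm2, lipocalin 2 (Lcn2), the leucine-rich glycoprotein gene Lrg1, haptoglobin (Hp) and C-reactive protein (Crp). They were chosen by symbol, as every probe set annotated with 1 of these 10 names, which gave 12 of the 22626 probe sets and 10 of the 12393 genes measured. Whole-liver RNA of female mice on the C57BL/6 background, 8 to 12 weeks old, was read on 12 Affymetrix Mouse430A arrays, 3 per group. The groups were HDAC6 knockout mice, HDAC9 knockout mice, wild-type mice on a high-fat diet with 60% of energy from fat, and wild-type mice on regular chow with 25% of energy from fat. HDAC6 and HDAC9 are histone deacetylases, enzymes that remove acetyl groups from proteins. No diet is stated for the knockout mice, so in their comparisons with wild-type mice genotype and any difference of diet cannot be told apart. How the knockouts were made and whether each replicate was a separate mouse are not given in the sources used here, and the p-values therefore cover only the spread among these arrays, which may be technical. Values are log2 expression on the RMA scale (robust multi-array average), where a difference of 1 is a doubling.

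The acute phase response is the change in plasma proteins that the liver makes after infection, injury or inflammation. Interleukin 6, acting through STAT3, and interleukin 1, acting through NF-kB and C/EBP factors, drive transcription of these genes in hepatocytes. Saa1 and Saa2 encode the serum amyloid A proteins that ride on high-density lipoprotein and are among the most strongly induced proteins in the mouse, and Saa3 is made by macrophages and fat as well as by liver. Saa4 is the constitutive member. Orosomucoids carry small lipophilic molecules in plasma, lipocalin 2 withholds iron from bacteria by binding their siderophores, haptoglobin binds free haemoglobin, and C-reactive protein binds damaged cells and bacteria but is only a minor reactant in the mouse.

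The upstream sequences of 3 of the genes are shown because Orm2 separated the groups most and because Saa1 and Saa2 moved together. They are the 250 bases before the annotated start, from RefSeq on GRCm38.p6, written 5′ to 3′ on the strand of the gene. Capitals mark the match to the C/EBP motif TTGCNNAA. Orm2 lies at chr4:63362199-63362448 on the plus strand, Saa1 at chr7:46742981-46743230 on the minus strand and Saa2 at chr7:46751583-46751832 on the plus strand.
Orm2: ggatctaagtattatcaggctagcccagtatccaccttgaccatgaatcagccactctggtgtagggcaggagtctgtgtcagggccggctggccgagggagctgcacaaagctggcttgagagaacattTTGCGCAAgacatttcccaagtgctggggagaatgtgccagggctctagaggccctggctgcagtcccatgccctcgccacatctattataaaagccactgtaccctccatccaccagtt
Saa1: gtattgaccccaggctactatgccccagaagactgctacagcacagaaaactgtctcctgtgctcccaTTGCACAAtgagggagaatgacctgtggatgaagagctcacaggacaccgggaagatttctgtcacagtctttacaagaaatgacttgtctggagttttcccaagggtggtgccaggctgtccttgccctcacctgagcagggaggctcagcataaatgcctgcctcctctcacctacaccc
Saa2: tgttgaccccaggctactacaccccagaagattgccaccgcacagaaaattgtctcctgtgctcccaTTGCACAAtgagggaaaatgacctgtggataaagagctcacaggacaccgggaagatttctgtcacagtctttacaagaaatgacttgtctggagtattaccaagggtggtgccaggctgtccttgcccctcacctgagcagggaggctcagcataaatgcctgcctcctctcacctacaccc
The Saa1 and Saa2 stretches were identical at 238 of 251 aligned columns (94.8%), and both carried TTGCACAA, at -182 to -175 in Saa1 and at -183 to -176 in Saa2, counted back from the start. The Orm2 match, TTGCGCAA at -120 to -113, reads the same on both strands. RefSeq's table held upstream sequences for 8 of the 10 genes, all but Orm1 and Hp. The C/EBP motif, searched on both strands, was in 6 of those 8, namely Orm2, Saa1, Saa2, Saa3, Saa4 and Lcn2, against 9.56% of all 32851 upstream stretches of the same length. In Lcn2 it was TTGCTCAA at -216 to -209, and in Saa3 it was TTATGCAA at -99 to -92, a match on the opposite strand. The STAT motif TTCNNNGAA and the NF-kB motif were found in 0 of the 8 (7.02% and 7.25% of all stretches). Lrg1 held the interleukin 6 response element CTGGGAA, as did 9.1% of all stretches, and Crp and Orm2 held TATAAA (12.4% of all). The Saa genes lie next to one another on chromosome 7 in the order Saa3, Saa4, Saa1, Saa2, and Orm1, Orm3 and Orm2 lie next to one another on chromosome 4.

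Hepatocyte markers were high on every array, 12 of 12 measured, and albumin (Alb) ran from 14.16 to 14.25. All 10 acute phase genes averaged above the median gene (6.39), and the background, taken from 27 genes not known in liver, had a median of 3.47. The Hdac6 transcript averaged 6.28 ± 0.198 (SD, n = 3) in the HDAC6 knockout livers and 7.91 ± 0.060 in chow livers. Hdac9 read 4.04 to 4.53 on all arrays and gave no check of the HDAC9 labels. Replicate 2 of the HDAC9 knockout stood apart: 15 of the 16 exocrine pancreas markers measured were highest on it, and their summed level was 12.53 there against 9.20 to 10.74 on the other 11 arrays. Replicate 1 of the HDAC9 knockout also read above the remaining 10 arrays for some of them, the protease genes Ctrb1 (5.97, against 4.40 to 4.98), Ctrl (5.42, against 4.18 to 4.98) and Cpa1 (4.89, against 3.78 to 4.29), so leaving out replicate 2 does not remove these transcripts from the group. These 3 were singled out after their values were seen. Replicate 2 was also the array on which 8 of the 10 acute phase genes were highest. The main HDAC9 knockout comparisons of the 10 genes are therefore given with and without it, while several of other genes are given only with it. Whether the pancreas transcripts have a part in the acute phase values was not tested. In whole liver, a lower level can come from fewer cells of a type or from less RNA per cell, and these cannot be told apart.

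Orm2, an orosomucoid gene, had the clearest pattern. It read 8.37, 9.49 and 8.30 in the HDAC9 knockout livers (replicates 1, 2 and 3), 8.17, 7.51 and 7.65 in the HDAC6 knockout livers, 7.11, 7.11 and 7.28 in chow livers, and 6.33, 6.61 and 6.69 in high-fat livers. The 4 groups followed one another without any overlap, from HDAC9 knockout down through HDAC6 knockout and chow to high-fat. Of the 12393 genes, 2 (0.0161%) had no overlap between any of the 4 groups, Orm2 and Fes. Orm2 alone (0.00807%) had this order, but the order was taken from its own values, so that share is no test of the pattern. Fes was singled out after its values were seen. Neighbours in the order did not differ past the threshold, an adjusted p under 0.05 in limma over all genes: the difference was 0.95 (adjusted p 1) between the knockouts, 0.61 (adjusted p 0.833) between HDAC6 knockout and chow, and -0.62 (adjusted p 0.491) between high-fat and chow. The ends of the order did differ, as described with the comparisons.

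Orm1, the other orosomucoid measured among the 10, stayed within a narrow band. It read 12.46, 13.05 and 12.94 in the HDAC9 knockout livers, 12.69, 12.57 and 12.57 in the HDAC6 knockout livers, 12.66, 12.60 and 12.52 in chow livers, and 12.64, 12.50 and 12.37 in high-fat livers. HDAC9 knockout replicates 2 and 3 lay above all other arrays, and replicate 1 lay below all chow arrays. The upstream neighbour of Orm2, Orm3, was no member. Among the upstream stretches aligned with that of Orm2, which did not include Orm1, that of Orm3 was the most similar (85.9% identical). Orm3 read 7.32, 7.48 and 7.43 in the HDAC9 knockout, all 3 above the chow arrays at 6.19, 6.87 and 7.28. That difference, 0.63 (SE 0.242), had an adjusted p of 0.74 in limma.

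**Figure D1:**
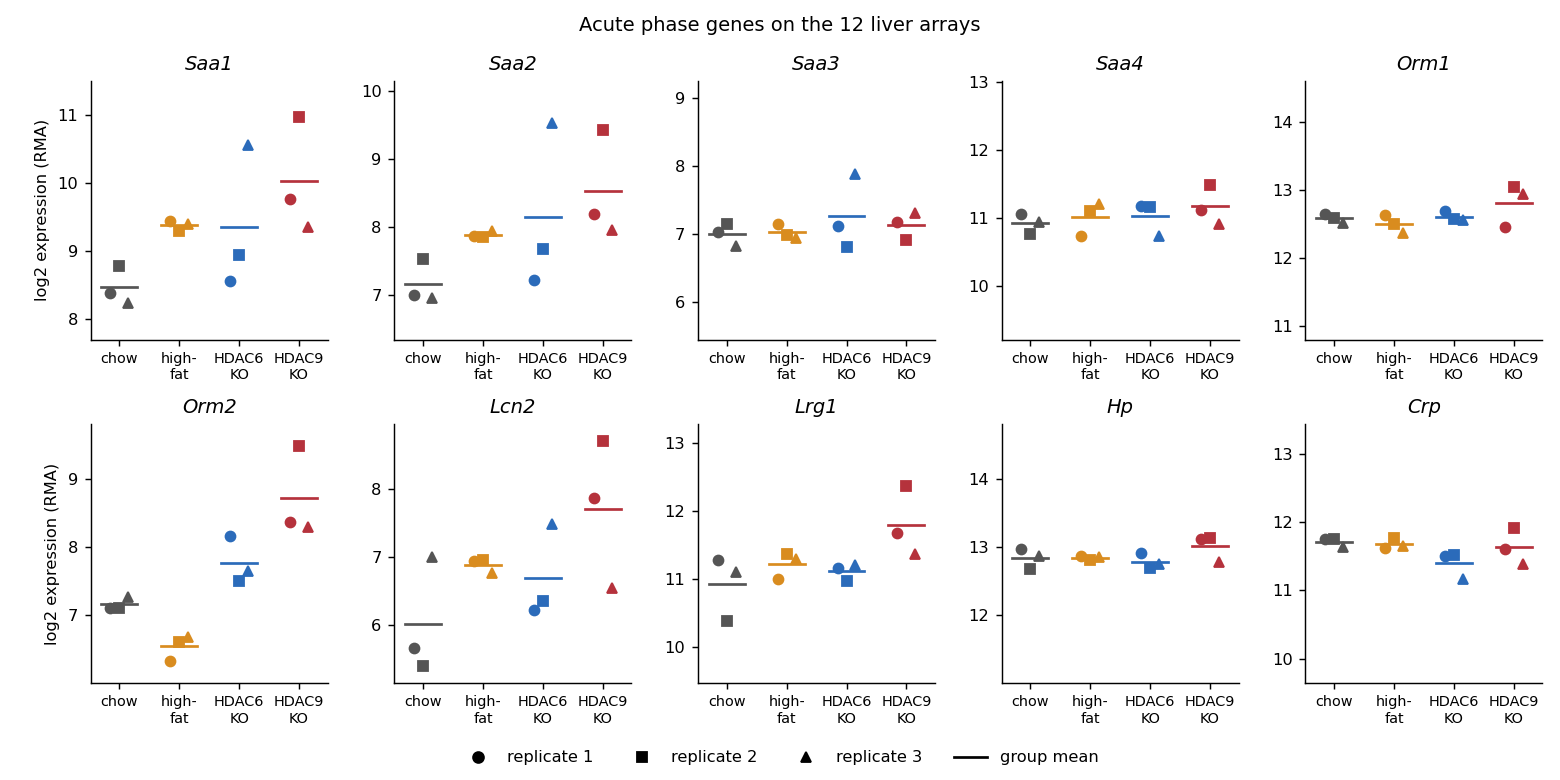
Log2 expression of the 10 acute phase genes on the 12 arrays, 1 panel per gene, with the groups on the x axis, 1 symbol per replicate and a line at each group mean of 3 arrays; each y axis covers its own range. The 4 groups of Orm2 do not overlap, and HDAC9 knockout replicate 2 is the highest array for 8 of the 10 genes.

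The inducible serum amyloid genes Saa1 and Saa2 varied widely within both knockouts. Saa1 read 9.76, 10.96 and 9.35 in the HDAC9 knockout livers, 8.56, 8.95 and 10.56 in the HDAC6 knockout livers, 9.44, 9.29 and 9.40 in high-fat livers, and 8.39, 8.78 and 8.23 in chow livers. All HDAC9 knockout and all high-fat arrays lay above all chow arrays, whereas HDAC6 knockout replicate 1 lay among them. Saa2 read 8.19, 9.43 and 7.95 in the HDAC9 knockout, 7.22, 7.68 and 9.53 in the HDAC6 knockout, 7.87, 7.85 and 7.94 in high-fat and 7.00, 7.54 and 6.96 in chow livers. The same 2 arrays, HDAC9 knockout replicate 2 and HDAC6 knockout replicate 3, were the highest for both genes. The high-fat arrays lay close together, with an SD of 0.076 for Saa1 and 0.050 for Saa2, against 1.06 and 1.22 in the HDAC6 knockout.

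Across the 12 arrays Saa1 and Saa2 correlated at r = 0.981 (rho = 0.965; permutation p 1e-05 for each, the smallest that 100000 permutations can give; adjusted p 0.00045 over the 45 pairs of the 10 genes). Without the 2 arrays farthest from the median of Saa1, r was 0.983, and for deviations from the group means it was 0.992. The values of Saa1 and Saa2 are not fully separable. The Saa2 probe set carries a suffix that marks probes shared with other sequences, and the second Saa1 probe set lists a transcript that RefSeq gives to Saa2. That second probe set put Saa1 1.52 (SE 0.444) above chow in the HDAC9 knockout and 1.02 above it in the HDAC6 knockout, close to the 1.56 and 0.89 of the probe set used here. Of the 45 pairs, 3 more had an adjusted p under 0.05 for r: Lcn2 with Lrg1 (r = 0.824, adjusted p 0.0199 by permutation), Lrg1 with Hp (r = 0.806, adjusted p 0.0178) and Saa1 with Lcn2 (r = 0.804, adjusted p 0.0199). Their rho was 0.601, 0.58 and 0.678, none past the threshold (adjusted p 0.391, 0.392 and 0.384). Without the 2 arrays farthest from the median of the first gene named, r was 0.429, 0.626 and 0.608, and without HDAC9 knockout replicate 2 it was 0.67, 0.696 and 0.668.

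Saa1 did not follow Orm2. Their correlation over the 12 arrays was r = 0.488 (rho = 0.308; permutation p 0.107 and 0.33; adjusted p 0.24 and 0.646 over the 45 pairs), and r was 0.0233 without the 2 arrays farthest from the median of Saa1 and 0.107 without HDAC9 knockout replicate 2. The high-fat arrays had Saa1 above and Orm2 below every chow array. HDAC6 knockout replicate 3 had the second-highest Saa1 value, 10.56, and an Orm2 value of 7.65 that lay between those of replicates 1 and 2 of its group.

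**Figure D2:**
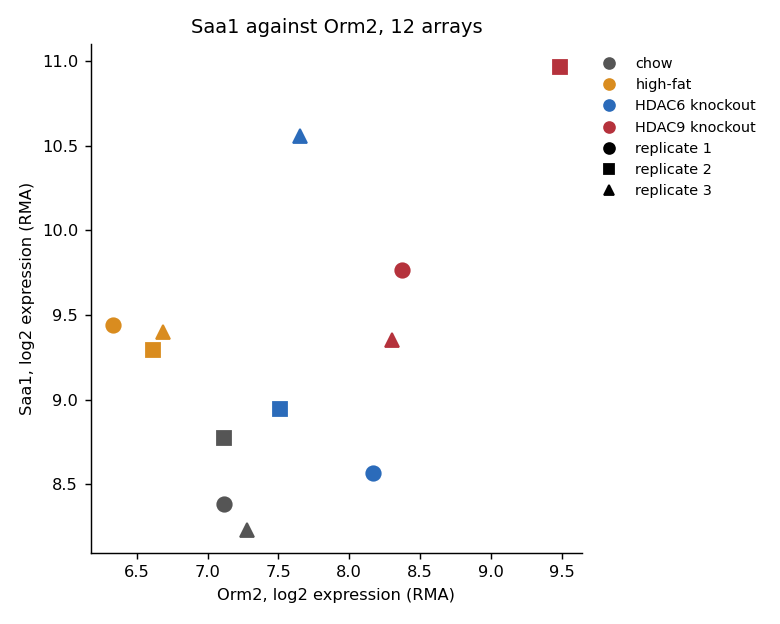
Saa1 (y axis) against Orm2 (x axis), both in log2 expression, for the 12 arrays, with colour for the group and shape for the replicate. High-fat arrays lie at the left with Saa1 of 9.29 to 9.44, above the chow arrays at 8.23 to 8.78, and HDAC9 knockout replicate 2 lies at the upper right.

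Saa3, the macrophage and fat form, and Saa4, the constitutive form, differed little between groups. Saa3 read 7.17, 6.91 and 7.30 in the HDAC9 knockout, 7.11, 6.81 and 7.88 in the HDAC6 knockout, 7.15, 6.99 and 6.94 in high-fat and 7.02, 7.14 and 6.83 in chow livers. HDAC6 knockout replicate 3 was the only array above 7.30. Saa4 read 11.12, 11.49 and 10.92 in the HDAC9 knockout, 11.18, 11.17 and 10.73 in the HDAC6 knockout, 10.74, 11.10 and 11.21 in high-fat and 11.06, 10.76 and 10.95 in chow livers, and the groups overlapped throughout. A second Saa4 probe set gave larger differences from chow, 0.80 in the HDAC9 knockout and 0.77 in high-fat livers (SE 0.467; adjusted p 0.865 and 0.711 in limma over 20380 probe sets), against 0.25 and 0.09 on the one used. On that second probe set, chow replicate 2 read 6.47 and the other chow arrays 8.91 and 8.66.

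Lcn2, which is made by hepatocytes and by neutrophils, had the widest spread of the 10 genes. It read 7.86, 8.71 and 6.55 in the HDAC9 knockout, 6.23, 6.35 and 7.48 in the HDAC6 knockout, 6.93, 6.95 and 6.76 in high-fat and 5.67, 5.39 and 6.99 in chow livers. Chow replicate 3 lay above every high-fat array and above HDAC9 knockout replicate 3, so no group was clear of chow. Neutrophil markers had a higher mean in the HDAC9 knockout than in chow for 13 of the 14 measured, against 46% of all genes, with a median difference of 0.20. Limma called 0 of these markers, and 3 had an unadjusted p under 0.05, against 6.08% of all genes. Without HDAC9 knockout replicate 2, 12 of the 14 markers had a higher mean and 2 an unadjusted p under 0.05. Their summed level was 10.13 to 10.72 in the HDAC9 knockout, 10.06 to 10.20 in the HDAC6 knockout, 9.61 to 10.23 in high-fat and 9.78 to 10.04 in chow livers. Linear levels were summed, so genes of high signal weigh most, above all Lyz2 (mean 9.42), which is counted among the macrophage markers too. Lyz2 read 9.72 on HDAC9 knockout replicate 2, and 9.54 and 9.58 on replicates 1 and 3. Among the defining markers, Itgam, Ltf and Mmp8 averaged at or below background. Prtn3, which enters the summed level, read 8.71 on HDAC9 knockout replicate 2, 4.92 on replicate 1 and 4.02 to 4.40 on the other arrays. The same arrays, replicate 2 and then replicate 1, were highest for the pancreas genes Ctrb1, Ctrl and Cpa1. The part of neutrophils in the Lcn2 and Prtn3 values was not tested.

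Lrg1, a secreted modulator of TGF-beta signalling, read 11.68, 12.37 and 11.37 in the HDAC9 knockout, 11.17, 10.97 and 11.21 in the HDAC6 knockout, 11.01, 11.37 and 11.30 in high-fat and 11.28, 10.39 and 11.10 in chow livers. All 3 HDAC9 knockout arrays lay above every chow and HDAC6 knockout array. Hp read 13.11, 13.14 and 12.77 in the HDAC9 knockout, 12.90, 12.69 and 12.75 in the HDAC6 knockout, 12.87, 12.80 and 12.85 in high-fat and 12.97, 12.67 and 12.87 in chow livers. Haptoglobin thus spanned 0.469 over the 12 arrays, the smallest range of the 10. Crp read 11.61, 11.92 and 11.38 in the HDAC9 knockout, 11.50, 11.53 and 11.17 in the HDAC6 knockout, 11.63, 11.77 and 11.65 in high-fat and 11.75, 11.75 and 11.64 in chow livers. Its HDAC6 knockout arrays all lay below its chow arrays, so Crp and Orm2 were ordered oppositely between those groups.

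**Figure D3:**
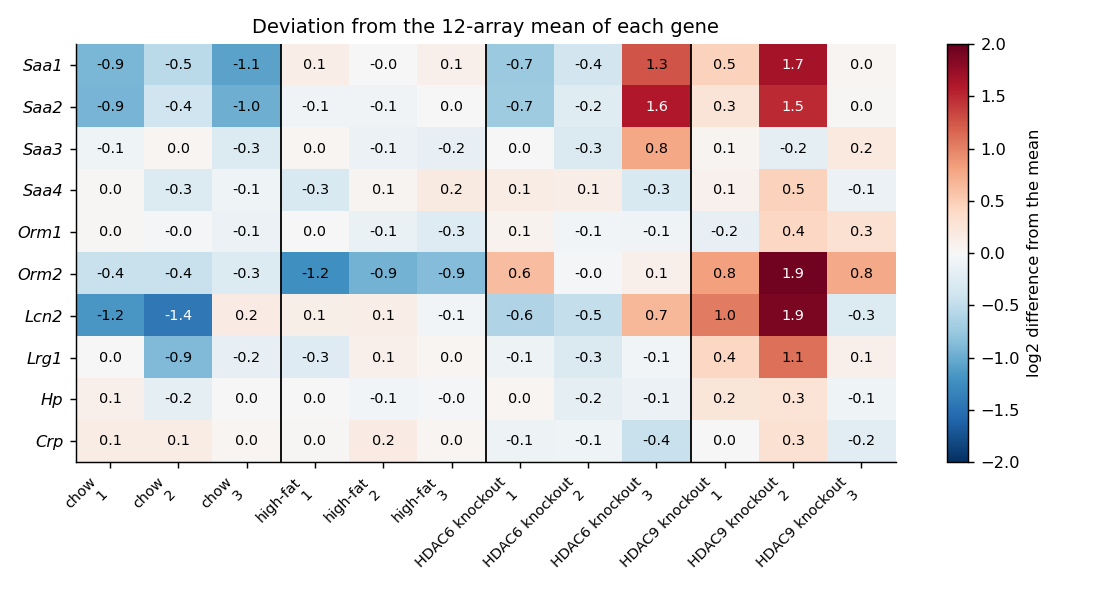
Difference of each array (columns, by group and replicate) from the 12-array mean of each acute phase gene (rows), in log2 units, red above and blue below the mean. HDAC9 knockout replicate 2 is raised for most genes, HDAC6 knockout replicate 3 for Saa1, Saa2, Saa3 and Lcn2, and the chow arrays are low for Saa1 and Saa2.

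In the HDAC9 knockout against chow, Orm2 rose 2.94-fold, and the strongest other differences were higher Lcn2, Saa1, Saa2 and Lrg1. The Orm2 difference was 1.55 on the log2 scale (SE 0.252, adjusted p 0.0454 in limma). Lcn2 was higher by 1.69 (SE 0.482, adjusted p 0.498), Saa1 by 1.56 (SE 0.428, adjusted p 0.438), Saa2 by 1.36 (SE 0.464, adjusted p 0.659) and Lrg1 by 0.88 (SE 0.233, adjusted p 0.403), none past the threshold. The other 5 lay between -0.08 (Crp) and 0.25 (Saa4). Of the 10 genes 1 was called higher, against 0.0403% of all genes called higher and 0.0968% called in either direction, and 5 had an unadjusted p under 0.05, against 6.08% of all genes. In 4 of the 10, Orm2, Saa1, Saa2 and Lrg1, all HDAC9 knockout arrays lay above all chow arrays, against 5.39% of all genes. A higher mean was found for 9 of the 10, with a median difference of 0.57, where 46% of all genes had a higher mean and the median gene differed by -0.014.

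Without HDAC9 knockout replicate 2, Orm2 was 1.17 (SE 0.174) above chow and its adjusted p was 0.0567. Lcn2 was then higher by 1.19, Saa1 by 1.09, Saa2 by 0.91 and Lrg1 by 0.60, with adjusted p between 0.705 and 0.880, and the median over the 10 genes was 0.42. The Orm2 call rested on single arrays beyond this one. It held without HDAC6 knockout replicate 1 or HDAC9 knockout replicate 1 (adjusted p 0.0372 and 0.0274) and was lost without any one of the other 10 arrays. Its adjusted p was then 0.0672 and 0.0557 without HDAC6 knockout replicates 2 and 3, 0.0756 without HDAC9 knockout replicate 3, 0.0924, 0.0634 and 0.0634 without high-fat replicates 1, 2 and 3, and 0.166, 0.151 and 0.0923 without chow replicates 1, 2 and 3. The difference itself stayed between 1.17 and 1.76.

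**Figure D4:**
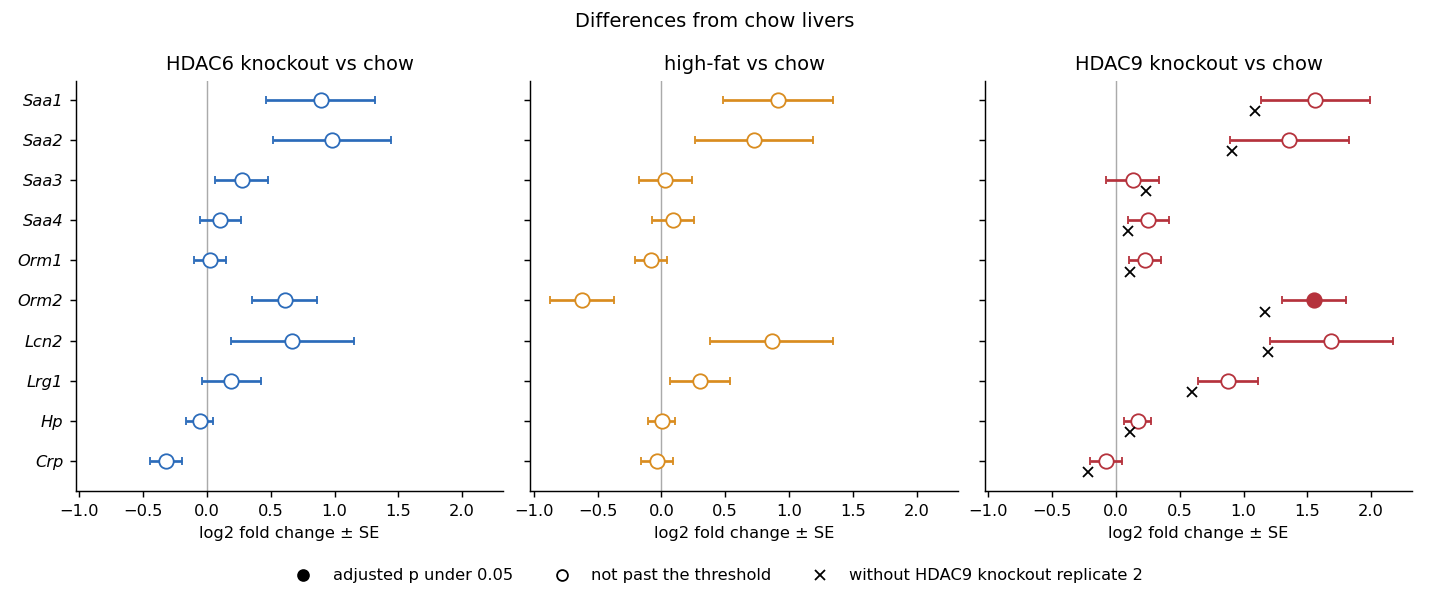
Log2 difference from chow (x axis, with its standard error) for the 10 acute phase genes in the HDAC6 knockout, high-fat and HDAC9 knockout groups, 3 arrays each; filled circles are past an adjusted p of 0.05 and crosses leave out HDAC9 knockout replicate 2. Orm2 in the HDAC9 knockout, at 1.55, is the only filled circle, and its cross lies at 1.17.

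In the HDAC6 knockout against chow, no acute phase gene passed the threshold. Saa2 was higher by 0.98 (SE 0.464), Saa1 by 0.89 (SE 0.428) and Orm2 by 0.61 (SE 0.252), and Crp was lower, at -0.32 (SE 0.125), with adjusted p between 0.806 and 0.865. Of the 10, 0 were called by limma, against 0.0161% of all genes, and 2 (Orm2 and Crp) had an unadjusted p under 0.05, against 5.77% of all genes. Orm2 lay above chow and Crp below it on all 3 arrays, and 10.1% of all genes had groups that did not overlap. The serum amyloid differences rested on HDAC6 knockout replicate 3: without it, Saa1 was 0.29 and Saa2 0.29 above chow, Lcn2 went from 0.67 to 0.27 and Saa3 from 0.27 to -0.03. Orm2 stayed at 0.67 without it. Of the 14 neutrophil markers, 5 were highest on that array, as were 7 of the 27 genes not known in liver. Saa4 and Crp were lowest on that array.

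In high-fat livers against chow, Saa1 was higher and Orm2 lower on every array, and neither passed the threshold. Saa1 differed by 0.91 (SE 0.428, adjusted p 0.590), Saa2 by 0.72 (SE 0.464, adjusted p 0.717), Lcn2 by 0.87 (SE 0.482, adjusted p 0.669) and Orm2 by -0.62 (SE 0.252, adjusted p 0.491). The other 6 lay between -0.08 (Orm1) and 0.30 (Lrg1). Limma called 0 of the 10, against 0.29% of all genes, and 1, Orm2, had an unadjusted p under 0.05, against 8.48% of all genes. Saa1 and Saa2 were clear of chow upward and Orm2 downward, 3 of 10, against 14.7% of all genes. In a fit of the 2 groups alone Saa1 was called (adjusted p 0.0333), the spread of the knockout arrays being left out of it. The 3 comparisons with chow share the chow arrays and are not independent of one another.

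Between the groups other than chow, Orm2 again gave the only call. It was 4.52-fold lower in high-fat than in HDAC9 knockout livers (-2.18, SE 0.252, adjusted p 0.0016 in limma), and 1 of the 10 genes was called, against 0.436% of all genes. Orm2, Orm1 and Lrg1 had an unadjusted p under 0.05 (8.1% of all genes), and for Orm2 and Saa2 the groups did not overlap (13.8% of all genes). Orm1 and Lrg1 differed by -0.31 and -0.58, each with an adjusted p of 0.508. Without HDAC9 knockout replicate 2 the Orm2 difference was -1.79 (adjusted p 0.000291), Orm1 was at -0.20 (adjusted p 0.895) and Lrg1 at -0.30 (adjusted p 0.925). The median over the 10 genes went from -0.44 to -0.19 without that array, and the number at an unadjusted p under 0.05 from 3 to 1. Without HDAC9 knockout replicate 1, in contrast, Orm1 was called at -0.49 (adjusted p 0.03). Between high-fat and HDAC6 knockout livers Orm2 differed by -1.23 (SE 0.252, adjusted p 0.0696), with 0 of the 10 called, 2 (Orm2 and Crp) at an unadjusted p under 0.05, and 0.145% and 7.27% of all genes past those thresholds. Orm2 was lower and Crp higher on all 3 high-fat arrays, and 13.1% of all genes had groups that did not overlap. Without HDAC9 knockout replicate 2, which is in neither group but enters the shared estimate of the spread, its adjusted p was 0.0027. Between the knockouts, Orm2 was higher in HDAC9 by 0.95, Lrg1 by 0.69 and Hp by 0.23, each with an adjusted p of 1. There 0 of the 10 were called, 3 had an unadjusted p under 0.05 (3.8% of all genes), and 0.00807% of all genes were called. For Orm2 and Lrg1 the knockouts did not overlap (8.46% of all genes). Without HDAC9 knockout replicate 2, Orm2 was higher by 0.56, Lrg1 by 0.41 and Hp by 0.16, again with an adjusted p of 1. Of the 10 genes 1, Orm2, then had an unadjusted p under 0.05, and the median went from 0.31 to 0.13.

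Among other genes of the response, the 2 metallothioneins had the widest differences. Of 32 further positive acute phase genes 26 were measured, and limma called 0 of them in each comparison with chow. At an unadjusted p under 0.05 were 4, 4 and 3 in the HDAC6 knockout, the HDAC9 knockout and high-fat livers. Over all genes 5.77%, 6.08% and 8.48% were at that unadjusted p, and 0.0161%, 0.0968% and 0.29% were called. A higher mean than in chow was found for 20 of the 26 in the HDAC9 knockout (median 0.10), against 46% of all genes. Against 45.6% and 47.2% of all genes in the HDAC6 knockout and high-fat livers, it was found for 10 of the 26 in each (median -0.03 and -0.08). Those of smallest p in the HDAC9 knockout were Fgl1, a hepatocyte-secreted fibrinogen-like protein, at 0.34, Orm3 at 0.63, Pigr, the receptor that carries immunoglobulin A into bile, at 0.40, and Cd14, a co-receptor for endotoxin, at 0.33. Their adjusted p lay between 0.728 and 0.788. HDAC9 knockout replicate 2 was the highest array for 12 of these 26 genes, and without it the mean was higher than in chow for 13 of 26 (median 0.01). Between high-fat and HDAC9 knockout livers limma called 0 of the 26, and 10 had an unadjusted p under 0.05, 9 of them lower in high-fat. Without that array these counts were 4 and 3. With all arrays, 8.1% of all genes had an unadjusted p under 0.05 in this comparison, and 0.436% were called.

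Mt2 and Mt1 encode metallothioneins, zinc-binding proteins that the liver makes during the acute phase. Both were singled out after their values were seen. Mt2 read 7.96, 8.15 and 7.64 in high-fat, 7.79, 7.81 and 9.33 in the HDAC6 knockout, 8.96, 11.19 and 9.70 in the HDAC9 knockout and 9.20, 9.19 and 10.87 in chow livers. All high-fat arrays lay below all chow and all HDAC9 knockout arrays. Mt2 in high-fat livers differed from chow by -1.83 (SE 0.541, adjusted p 0.269 in limma), and by -1.28 without chow replicate 3. Its difference between high-fat and HDAC9 knockout livers was -2.03 (adjusted p 0.161), or -1.41 (adjusted p 0.431) without HDAC9 knockout replicate 2, and it was called at -2.53 (adjusted p 0.0479) without HDAC9 knockout replicate 1. In the HDAC6 knockout Mt2 differed from chow by -1.44 (adjusted p 0.76), or -0.89 without chow replicate 3. Mt1 differed from chow by -1.15 in high-fat livers (adjusted p 0.314) and by -0.85 in the HDAC6 knockout (adjusted p 0.836), with all 3 arrays below chow in each. In the HDAC9 knockout Mt1 and Mt2 were at -0.10 and 0.20 from chow. Without HDAC9 knockout replicate 2 they were at -0.59 and -0.42, so the sign for Mt2 rested on that array.

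Negative acute phase genes, which fall during inflammation, were measured for 13 of 16. In the HDAC9 knockout 10 of the 13 had a lower mean than chow (median -0.05), or 8 of 13 without HDAC9 knockout replicate 2. Limma called 0, and 1 had an unadjusted p under 0.05. Of all 12393 genes, 6698 had a lower mean in the HDAC9 knockout, 6.08% an unadjusted p under 0.05, and 0.0968% were called. Cyp7a1, which sets the rate at which bile acids are made, was lower there at -1.32 (SE 0.303, adjusted p 0.23) and on all 3 arrays. Its HDAC6 knockout arrays, at 8.66, 9.95 and 9.63, also lay below all chow arrays, at 10.01 to 10.70. In high-fat livers Apoa4, an apolipoprotein of triglyceride-rich particles, rose by 0.98 (adjusted p 0.011). That call held without any one array in 10 of 12 fits, with adjusted p from 0.00335 to 0.0704.

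Among the cytokines, receptors and transcription factors that drive the response, 30 of 34 were measured. In the HDAC9 knockout 15 of the 30 had a higher mean than chow (median 0.003), or 13 without HDAC9 knockout replicate 2. Limma called 1 of the 30 there, against 0.0968% of all genes. At an unadjusted p under 0.05 were 6, 3 higher and 3 lower, against 6.08% of all genes. Limma also called 1 of the 30 higher in high-fat than in HDAC6 knockout livers, and 1 higher than in HDAC9 knockout livers. Of all genes 0.145% and 0.436% were called in these comparisons. Without HDAC9 knockout replicate 2 the counts were 1 and 0. Il1b, which encodes interleukin 1 beta, rose in the HDAC9 knockout by 0.84 (SE 0.127, adjusted p 0.0377 in limma). It read 6.47, 6.42 and 6.38 there, 6.20, 6.17 and 5.89 in the HDAC6 knockout, 6.25, 5.97 and 5.98 in high-fat and 5.49, 5.78 and 5.46 in chow livers, so that each of the 3 groups was clear of chow. The Il1b call held in 4 of the 12 fits that leave out 1 array, with adjusted p from 0.0189 to 0.152, and the value was 0.84 (adjusted p 0.0944) without HDAC9 knockout replicate 2. Lifr, a receptor of the interleukin 6 family, was lower in the HDAC9 knockout at -0.86 (adjusted p 0.28), and Il1rap, the interleukin 1 co-receptor, at -0.38 (adjusted p 0.69). In the HDAC6 knockout Lifr read 10.90, 10.72 and 10.15, against 10.85 to 11.67 in chow. Il1rap read 10.43, 10.55 and 10.09 there, against 10.57 to 10.79 in chow. Stat3 was higher in the HDAC9 knockout at 0.46 (adjusted p 0.741), with 10.38 on replicate 2 and 9.63 and 9.70 on the others. Socs3, a feedback inhibitor that STAT3 induces, was looked at after its values were seen: it read 7.78 on HDAC9 knockout replicate 2 and 6.04 to 6.95 on the other arrays. Il6 read 2.47 to 3.31 on all arrays, below the background median.

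Receptors and ligands of the acute phase proteins were measured for 16 of 16. Hmox1, haem oxygenase, which breaks down the haem that haptoglobin and its receptor bring in, rose in high-fat livers by 1.12 (adjusted p 0.0465), a call that held in 4 of the 12 fits without 1 array (adjusted p 0.0069 to 0.199). Cd36, a fatty acid and amyloid A receptor, was higher in the HDAC9 knockout by 1.01 (SE 0.180, adjusted p 0.056). Its HDAC6 knockout arrays, at 8.83, 9.02 and 9.34, also lay above all chow arrays, at 7.91 to 8.78. In high-fat livers Cd36 read 8.03, 7.92 and 7.77, below all arrays of both knockouts. Limma called 1 of the 16 lower in high-fat than in HDAC6 knockout livers, and 1 lower than in HDAC9 knockout livers. Of all genes 0.145% and 0.436% were called there, and the lowest differences among the 16 were -1.15 and -1.47. Kupffer cell and macrophage markers, cells that make interleukin 1, had a higher mean than chow for 15 of 16 in the HDAC9 knockout (median 0.28), 14 of 16 in high-fat (median 0.27) and 12 of 16 in the HDAC6 knockout (median 0.22), with 0 called by limma (9, 7 and 3 at an unadjusted p under 0.05). Over all genes, 46%, 47.2% and 45.6% had a higher mean in those groups. An unadjusted p under 0.05 was found for 6.08%, 8.48% and 5.77% of all genes, and 0.0968%, 0.29% and 0.0161% were called. Chow replicate 3, which all 3 comparisons share, was the lowest array for 11 of the 16 markers. Without HDAC9 knockout replicate 2 the HDAC9 knockout count at an unadjusted p under 0.05 was 4 in place of 9, and the median 0.20. Their summed level was 13.65 to 13.94, 13.74 to 13.93 and 13.77 to 13.82 in those groups and 13.46 to 13.80 in chow, and all 16 averaged above background. Their part in the Il1b and acute phase values was not tested.

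The genes whose 12-array pattern was most like the mean of the 10 acute phase genes, among the non-members above the median gene, were Mfge8 (r = 0.845), Vegfb (0.839), Lpl (0.835), Dhrs7 (0.832), Tnfrsf1a (0.83), Steap4 (0.823), Stat3 (0.799), Stap2 (0.784), Prg4 (0.773) and Gtpbp6 (0.772). These correlations describe 12 arrays and share HDAC9 knockout replicate 2 as the highest point of the acute phase mean. Without it they were lower for all 10, from 0.325 for Stap2 to 0.754 for Vegfb, with 0.413 for Stat3. Lpl, lipoprotein lipase, and Dhrs7, a short-chain dehydrogenase, rose in the HDAC9 knockout against chow by 1.23 and 0.74 (adjusted p 0.0463 and 0.0377 in limma). Without 1 array the Lpl call held in 2 of 12 fits and the Dhrs7 call in 5 of 12, with adjusted p up to 0.193 and 0.161. Lpl is also an adipocyte marker, and the defining adipocyte genes Adipoq, Cidea, Cidec and Lep averaged at or below background over the 12 arrays, 4 of the 10 adipocyte markers measured. Adipoq, which encodes adiponectin, read 4.96 on HDAC9 knockout replicate 2, above background, and 2.62 to 3.05 on the other 11 arrays. Of the 10 adipocyte markers 3, Adipoq, Lpl and Retn, were highest on that array. Lpl read 10.33 there and 9.41 and 9.71 in replicates 1 and 3, and without replicate 2 it was 0.98 above chow (adjusted p 0.104).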

How the data were processed

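Liver RNA (100 ng per sample, per the labels' protocols) was measured on 12 arrays. The authors deposited log2 signals for each probe set, made with RMA per the submitters' processing notes. The chip definition is not given in the sources used here. Genes were named from a public probe annotation (20380 probe sets with 1 symbol, 691 with several, 1555 with none), and the probe set of highest mean stood for a gene. Comparisons used limma 3.58.1 in R 4.3.3 (4 group means, 12 arrays, variance trend, two-sided), with Benjamini-Hochberg adjustment over 12393 genes and a threshold of 0.05. The median standard error was 0.124, the number of arrays limits precision, and an exact test of 3 against 3 cannot go below p = 0.1. The procedure was tested on simulated data. Named were the 10 genes, genes called or of the 4 smallest p in the HDAC9 comparison in each list, and the 10 most alike in pattern. The members and lists were chosen with earlier results of these data known. Python 3.11.15, SciPy 1.17.1 and Biopython 1.88 gave correlations (100000 permutations) and alignments, and matplotlib 3.10.9 the figures. Alternatives changed the variance prior, the arrays fitted, the normalization, the filter on low genes, the probe-set rule and the replicate block, and left out each array. Same-numbered arrays did not deviate together (r from -0.152 to 0.148, over 0.1 in 4 of 18 pairs).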

Additional observations from a re-analysis of the deposited data

How the results depend on the processing

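Orm2 was called lower in high-fat than in HDAC9 knockout livers under all 23 alternatives (-2.39 to -1.79; adjusted p 0.000291 to 0.0229), and no other call did as well. In the HDAC9 knockout against chow, the count of the 10 genes called was 1 with quantile normalization, median centring, removal of probe sets with shared-probe suffixes (which drops Saa2, Saa3 and Lcn2) and the replicate number as a block (Orm2, adjusted p 0.0379). It was 0 with no variance trend, a robust prior, the 2 groups alone, genes under the 25th or the 50th percentile removed, the mean of probe sets and every probe set on its own, where Orm2 stayed at 1.55 with adjusted p from 0.0513 to 0.309; the cause was not tested. It was 0 to 1 with each array left out. In a fit of the 2 groups alone the count was 1 for high-fat against chow (Saa1) and 1 for high-fat against HDAC6 knockout (Orm2, adjusted p 0.0129). With each array left out it was 0 to 1 for the latter and 1 to 2 for high-fat against HDAC9 knockout. The block changed no other call.

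Small differences that were never called changed sign. Median centring gave Orm1 -0.002273 in HDAC6 knockout against chow, Hp -0.004192 in high-fat against chow and Saa4 0.00298 in high-fat against HDAC6 knockout, and the mean of probe sets gave Saa1 -0.04598 and Saa4 0.1158 in the last of these. With each array left out, differences in HDAC6 knockout against chow ran from -0.03463 to 0.4995 for Saa3, -0.02016 to 0.05381 for Orm1, -0.07397 to 0.3688 for Lrg1 and -0.1415 to 0.01147 for Hp. In HDAC9 knockout against chow Crp ran from -0.2173 to 0.04966. In high-fat against chow Saa3 ran from -0.05524 to 0.1005, Saa4 from -0.005842 to 0.2313 and Hp from -0.0811 to 0.07185. Between the knockouts Saa2 ran from -0.08273 to 1.074, Saa3 from -0.3679 to 0.1663 and Saa4 from -0.008112 to 0.2795. In high-fat against HDAC6 knockout Saa1 ran from -0.3741 to 0.6227, Saa2 from -0.7188 to 0.4375, Saa3 from -0.4699 to 0.06424, Saa4 from -0.1593 to 0.1259 and Lcn2 from -0.03304 to 0.5965. In high-fat against HDAC9 knockout Crp ran from -0.0843 to 0.1827. In the ranges with each array left out, the sign depended on which array it was.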
